A study of Mus musculus with 4 samples.

Results

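The kinesin genes were taken as every gene whose symbol starts with Kif or Kifc followed by a number. The rule found 47 of the 38924 genes counted in the deposited files, with 937 of 207562 introns and 2396 of 605144 exon segments and splice junctions. Kinesins are motor proteins that use ATP to move along microtubules or to take them apart at their ends. In dividing cells they build the bipolar spindle, align the chromosomes and form the midzone for cytokinesis, and in all cells they carry vesicles, mRNA and organelles. Male germ cells use both kinds in turn, since late prophase spermatocytes are about to assemble the meiotic spindles, and the spermatids that follow build a manchette and a flagellum with kinesin-dependent transport.

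RNA came from cells of the testis that carried the human CD4 surface protein and were isolated on magnetic beads from mice at 20 days post partum. Human CD4 was expressed from the endogenous Tdrd6 promoter in both genotypes, so that the cells collected were mainly diplotene spermatocytes, and each sample was a pool of at least 4 mice. The 4 samples were 2 of Tdrd6+/- and 2 of Tdrd6-/- mice. Loss of TDRD6, a scaffold protein of the germ cell granules, was compared with its heterozygous control for the abundance and the splicing of the kinesin transcripts.

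Counts of the targeted gene Tdrd6 were 33220 and 39322 for Tdrd6+/-, against 359 and 400 for Tdrd6-/-. Gene counts summed to 26454326 to 31388750 per sample. Intron counts summed to 13937818 and 12258600 in Tdrd6+/- 1 and 2, and to 12953528 and 9603669 in Tdrd6-/- 1 and 2, so that intron reads were fewest in Tdrd6-/- 2 relative to its gene counts. All 7 late prophase markers were tested, of which Sycp1 was higher in Tdrd6-/- (log2 fold change 0.60, edgeR adjusted p = 0.0467) and Piwil1 lower (-0.44, edgeR adjusted p = 0.0773). The other 5 were not called, among them Sycp2 (0.44, edgeR adjusted p = 0.1). Of the 7 markers 6 had a log2 fold change above 0, and the median was 0.25. Summed raw counts of 6 Sertoli cell markers were 2017 and 2133 in Tdrd6+/- and 2892 and 3138 in Tdrd6-/-. Those of 7 markers of spermatogonia and early meiosis were 648 and 666 against 902 and 1047. None of these genes was called. The Tdrd6-/- libraries were larger. After scaling to library size both sums were still higher in both Tdrd6-/- samples than in both controls, but by less. The median log2 fold change was 0.38 for the Sertoli markers. Of these, 5 were above 0 and Sox9 was at -0.78 (edgeR adjusted p = 0.28). For the markers of spermatogonia and early meiosis the median was 0.29, with 6 above 0. Markers of Leydig, peritubular and macrophage cells summed to at most 287, 114 and 166 counts in any sample, also with none called. The part of such cells in the kinesin results was not tested. In these bulk samples fewer cells of a type and less RNA per cell cannot be told apart.

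Of the 47 genes, 44 had a row of their own in the count files. Kif17, Kif27 and Kif28 were counted only together with an overlapping gene (Sh2d5, Mir6369 and Ahctf1), and their reads cannot be separated from it. Levels were compared between genes as CPM (counts scaled to library size after TMM) per kb of annotated exon. The gene with the highest level was Kif9, a motor of the sperm flagellum, at 114 and 131 CPM per kb in Tdrd6+/- and 123 and 129 in Tdrd6-/-. It was followed by Kif3b, the kinesin-2 motor subunit that drives anterograde intraflagellar transport, with 88.5 and 105 in Tdrd6+/- and 94.1 and 92.2 in Tdrd6-/-. Kif20a, needed for cytokinesis, was next by the mean of all samples, with 53.3 and 58.1 against 62.8 and 66.9, but in Tdrd6+/- alone Kif2a was above it. It overlaps Cdc23 on the other strand, with which it shares 25.2% of its stretches of 50 bases, so that its count carries the same doubt about strand as given for Kif2a below. Of Kif9, Kif3b and Kif20a, only the samples of Kif20a were separated by genotype, with a log2 fold change of 0.22 ± 0.128 (SE) that did not pass the test (edgeR adjusted p = 0.483).

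The levels differed widely within every group of roles. The 16 spindle and cytokinesis kinesins ranged from 1.38 to 60.3 CPM per kb with a median of 9.12, and the 16 transport kinesins from 0.237 to 94.9 with a median of 4.01. Here and below, the spindle and cytokinesis group includes the transcribed pseudogene Kif4-ps, at 32.5 CPM per kb. The 5 testis and cilium kinesins with a row of their own ranged from 1.03 to 124, with a median of 9.58. Kif3a, the partner subunit of Kif3b, was the second transport kinesin at 38.3 ± 1.87 in Tdrd6+/- and 38.0 ± 1.35 in Tdrd6-/- (SD, n = 2 each), and Kifc3, a minus-end directed motor, followed at 12.9 ± 0.0292 and 13.5 ± 0.423. Among testis and cilium kinesins Kif24, a kinesin-13 that acts at centrioles, and Kif6, a motor of motile cilia, followed Kif9 at 15.9 and 9.58 CPM per kb over all samples. At the lower end of the transport kinesins were Kif1a, which carries synaptic vesicle precursors in axons, at 0.532, Kif13a at 0.372 and Kif3c at 0.237. Kif1bp, whose protein binds kinesins without being a motor, was at 7.37, while Kif26a and Kif26b, members without motor ATPase activity, were at 0.208 and 0.0308. Kif12, the pseudogenes Kif22-ps and Kifc5c-ps and the antisense RNA Kif16bos had at most 6 counts in any sample and were not tested.

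**Figure D1:**
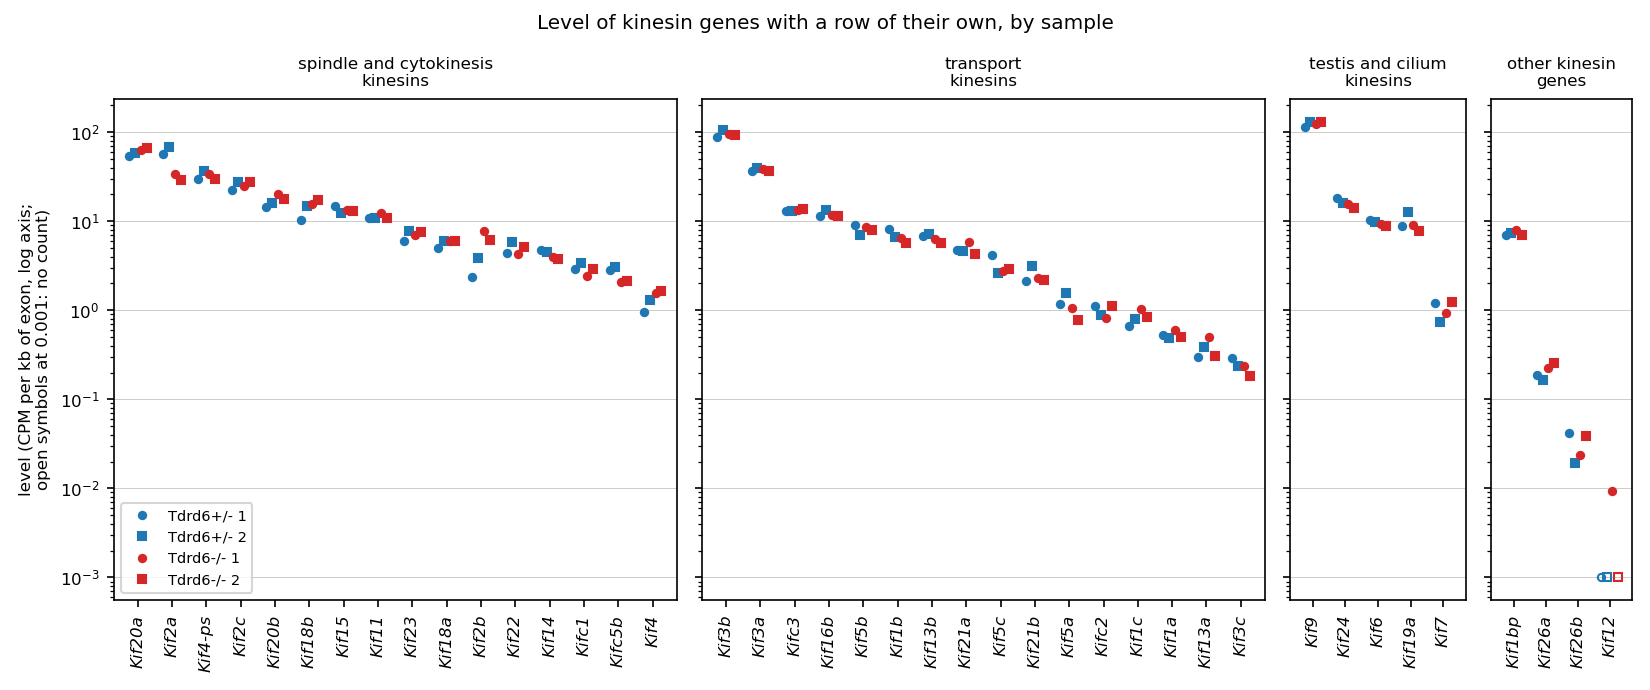
Level of the kinesin genes with a row of their own and an assigned role, in CPM per kb of exon on a log axis, with 1 point per sample (blue Tdrd6+/-, red Tdrd6-/-). Kif9, Kif3b and Kif20a were highest by the mean of all samples, with Kif2a above Kif20a in Tdrd6+/- alone, and only Kif2a and Kif2b showed a separation of the genotypes that passed the test.

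Some members exist in near copies, and the sequences below show how far reads can tell them apart. Kif4, a chromokinesin gene on chromosome X, had 138 and 202 counts in Tdrd6+/- and 275 and 292 in Tdrd6-/-, whereas its processed copy Kif4-ps on chromosome 12 had 3252 and 4221 counts in Tdrd6+/- and 4408 and 3986 in Tdrd6-/-. The copy, annotated as a transcribed pseudogene, thus held most reads of the pair, at 32.5 CPM per kb against 1.38. The transcripts were 80.0% identical over 3660 aligned bases, and only 15 of the 4096 stretches of 50 bases in Kif4-ps occurred in Kif4. Kif4 shared more with another gene, Pdzd11, which held 783 of its 5512 stretches. The part of Pdzd11 reads in the low Kif4 counts was not tested. Windows of 60 bases were compared within single exons and without gaps, leaving out any that were fully identical. The most similar of these had 59 identical positions, with the differing base in capitals (GENCODE M21 transcripts, mm10, plus strand of chrX:100665673-100665732 and of chr12:101146512-101146571).

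Kif4: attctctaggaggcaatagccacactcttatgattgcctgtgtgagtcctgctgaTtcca
Kif4-ps: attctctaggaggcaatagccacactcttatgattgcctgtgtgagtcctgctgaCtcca

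Kifc1 and Kifc5b, minus-end directed motors of the kinesin-14 class that focus spindle poles, are encoded by paralogs on chromosome 17 that were 98.4% identical over 2016 aligned coding bases. They shared 1372 stretches of 50 bases, which was 38.6% of those in Kifc1 and 36.6% of those in Kifc5b, and their separate counts are therefore uncertain. Their similarity is shown in the coding window of chr17:33886772-33886831 (minus strand, Kifc1) and chr17:26920864-26920923 (plus strand, Kifc5b).

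Kifc1: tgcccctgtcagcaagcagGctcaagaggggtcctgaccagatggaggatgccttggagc
Kifc5b: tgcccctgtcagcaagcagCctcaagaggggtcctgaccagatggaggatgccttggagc

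Counted together, the paralogs had 20.3 and 22.8 CPM in Tdrd6+/- and 15.8 and 17.9 in Tdrd6-/-. The genotypes did not overlap, but the sum was not tested, and 23.4% of all genes tested had both Tdrd6-/- samples below both controls. Neither gene alone passed the test (Kifc1 log2 fold change -0.24, edgeR adjusted p = 0.698, and Kifc5b -0.47, edgeR adjusted p = 0.306).

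Whether TDRD6 loss altered the abundance of kinesin transcripts was tested on the gene counts with edgeR's quasi-likelihood test and Benjamini-Hochberg adjustment over all 16555 rows tested, at a false discovery rate of 0.1. Of 43 kinesin rows tested, Kif2a was lower and Kif2b was higher in Tdrd6-/-, and 41 did not pass. Over all genes 4.80% were called, 3.78% lower and 1.02% higher, so that 2 of 43 is close to the share in the whole transcriptome. The median log2 fold change of the kinesin rows was -0.01, beside 0.012 over all genes. An unadjusted p under 0.05 was reached by 8 kinesin rows, of which 6 were spindle and cytokinesis kinesins. The share of all genes at this p is not given, here or for the later counts of unadjusted p. Such counts therefore cannot show whether a group stands out.

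**Figure D2:**
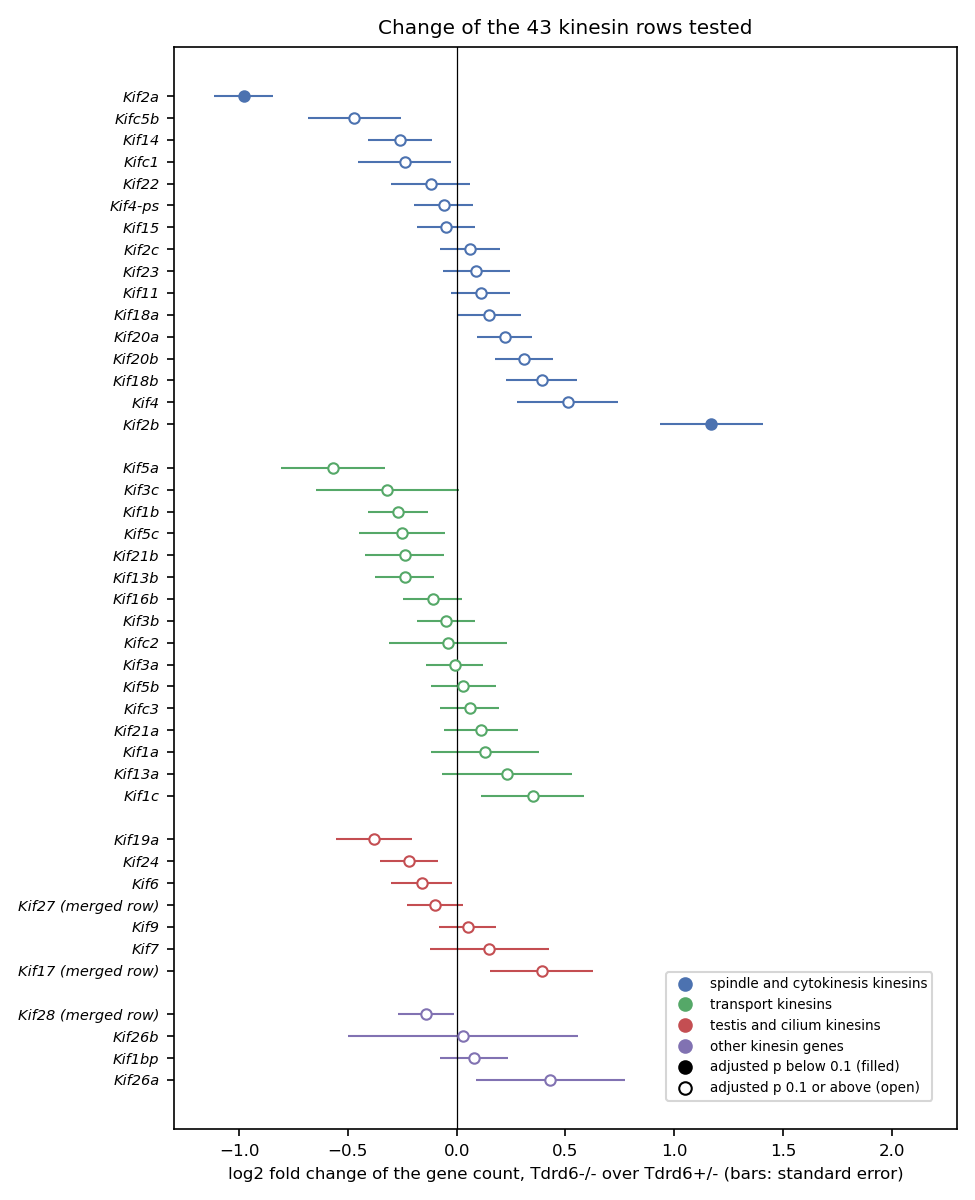
Log2 fold change of the gene count (Tdrd6-/- over Tdrd6+/-) with its standard error for the 43 kinesin rows tested, by role. The filled points are Kif2a at -0.98 and Kif2b at 1.17, and all others are open, with edgeR adjusted p at or above 0.252.

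Both called genes belong to the kinesin-13 class, whose members do not walk but depolymerize microtubule ends at spindle poles and centromeres. Kif2a lies at chr13:106958996-107022126 on the minus strand and was the third highest kinesin per kb in Tdrd6+/- (62.1 ± 8.39 CPM per kb, SD, n = 2) and the sixth in Tdrd6-/- (31.4 ± 3.17). Its counts were 9406 and 12118 in Tdrd6+/-, compared with 6809 and 5974 in Tdrd6-/-, which is 359 and 435 CPM against 215 and 187. Both Tdrd6-/- samples were below both controls, and the means were 397 ± 53.6 and 201 ± 20.3 CPM (SD, n = 2 each). The log2 fold change was -0.98 ± 0.137 (SE), with an edgeR adjusted p of 0.000156. Leaving out 1 sample at a time gave -0.84 to -1.10 with the edgeR adjusted p below the threshold each time. Here and in every such fit the genotype with a lone sample is assumed to vary like the other one, so that these p-values rest on the spread of a single genotype. The lower level was found in most rows of the gene, but not in all. Of those with at least 10 counts, 30 of 37 exon segments and 19 of 22 annotated junctions were below both controls in both Tdrd6-/- samples. None was above both. Over all genes 25.3% of such segments and 23.3% of such junctions were below both controls, and 15.7% and 17.6% above both. The Kif2a segments not below both controls were 30, 31 and 33 to 37, at the end of the numbering. At its 3′ end Kif2a overlaps Dimt1 on the other strand, with which it shares 1180 stretches of 50 bases, and whether counting used strand is not stated in the sources used here. The Dimt1 counts were 342, 357, 393 and 430 in the order given above, far below those of Kif2a.

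Kif2b at chr11:91575315-91577558 on the minus strand is a gene of a single exon and lay much lower, in rank 23 of the kinesins by the mean CPM per kb of all samples. It had 138 and 242 counts in Tdrd6+/- and 556 and 441 in Tdrd6-/-, or 5.27 and 8.69 CPM against 17.6 and 13.8. Here both Tdrd6-/- samples were above both controls, with means of 6.98 ± 2.42 and 15.7 ± 2.69 CPM (SD, n = 2 each) and a log2 fold change of 1.17 ± 0.236 (edgeR adjusted p = 0.00597). With each sample left out the log2 fold change was 0.86 to 1.57 and still called, under the assumption just given, but it was not called without the filter on low counts, where the edgeR adjusted p was 0.228 at a log2 fold change of 1.19. Of 5 spermatid markers, Acrv1 was the only one with enough counts to be tested and was also higher, with 77 and 159 counts in Tdrd6+/- and 297 and 241 in Tdrd6-/- (log2 fold change 0.96, edgeR adjusted p = 0.0565). Acrv1 made up most of the summed spermatid markers, which had 85 and 167 counts against 310 and 265. Scaled, these sums were 3.25 and 6.0 against 9.8 and 8.28 CPM. Prm1, Prm2, Tnp1 and Tnp2 had at most 10 counts in any sample. The part of spermatids in the Kif2b counts was not tested.

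Their paralog Kif2c (also known as MCAK, the depolymerase at centromeres), had 98.3 and 121 CPM in Tdrd6+/- and 109 and 119 in Tdrd6-/-. These values overlapped and its log2 fold change was 0.06 ± 0.139 (edgeR adjusted p = 0.912). Reads of Kif2a and Kif2b could be told apart, since no stretch of 50 bases of Kif2b occurred in another gene, and the coding sequences were 70.8% identical over 1197 aligned bases. Their most similar coding window, chosen as for Kif4 and Kif4-ps, is shown because these paralogs were called in opposite directions. It had 54 of 60 bases identical, with the 6 differing bases in capitals (minus strand of chr13:106977024-106977083 and of chr11:91576262-91576321, mm10).

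Kif2a: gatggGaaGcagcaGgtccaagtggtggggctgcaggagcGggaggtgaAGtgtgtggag
Kif2b: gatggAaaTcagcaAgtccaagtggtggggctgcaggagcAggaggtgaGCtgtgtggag

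**Figure D3:**
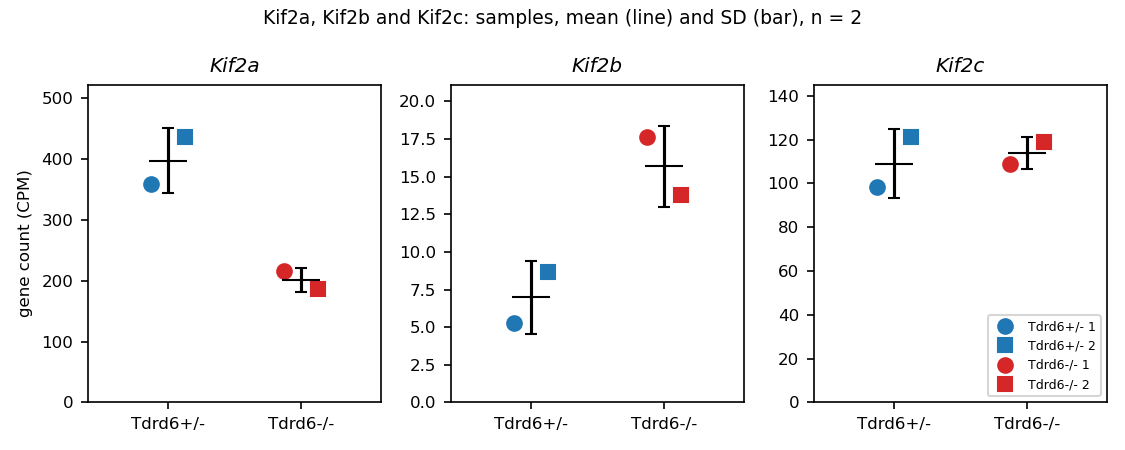
Gene counts in CPM of the kinesin-13 genes Kif2a, Kif2b and Kif2c in each sample, with the mean (line) and SD (bar) of the 2 samples per genotype and axes that start at 0. Kif2a was lower in both Tdrd6-/- samples, Kif2b was higher in both, and the Kif2c samples overlapped.

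Among the other spindle and cytokinesis kinesins, 14 of 16 did not pass the test. The median log2 fold change of the 16 rows was 0.08, with both Tdrd6-/- samples above both controls for 7 of them and below for 3. Over all genes tested 20.1% were separated upwards and 23.4% downwards in this way. Kif18b, a kinesin-8 that limits astral microtubule length, had 36.8 and 53.1 CPM in Tdrd6+/- and 55.6 and 62.5 in Tdrd6-/- (log2 fold change 0.39, edgeR adjusted p = 0.258). It passed only without Tdrd6+/- 2, at 0.68 and an edgeR adjusted p of 0.0267. Kif20b, a kinesin of the cytokinetic midzone, had 101 and 113 CPM against 141 and 124 (0.31, edgeR adjusted p = 0.284). Kif4 on the X chromosome had 5.27 and 7.25 against 8.70 and 9.12 (0.51, edgeR adjusted p = 0.316), beside -0.06 for its copy Kif4-ps (edgeR adjusted p = 0.903). Kif15, which supports the bipolar spindle together with Kif11, had 164 and 136 CPM against 146 and 143 (-0.05 ± 0.134, edgeR adjusted p = 0.917). For Kif11, the kinesin-5 motor that pushes the poles apart, the log2 fold change was 0.11 ± 0.136 (edgeR adjusted p = 0.819).

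None of the 16 transport kinesins and none of the 7 testis and cilium kinesins was called by edgeR, and DESeq2's Wald test called no kinesin other than Kif2a and Kif2b (2 of 42, beside 5.56% over all genes). The transport kinesins had a median log2 fold change of -0.04 and a range of -0.57 to 0.35, with 1 unadjusted p under 0.05. This was Kif5a, a heavy chain of conventional kinesin that carries cargo along axons, with 8.21 and 10.9 CPM in Tdrd6+/- and 7.49 and 5.37 in Tdrd6-/- (log2 fold change -0.57 ± 0.238, edgeR adjusted p = 0.252). The other heavy chains had 0.03 (Kif5b) and -0.25 (Kif5c), and the kinesin-2 subunits Kif3a and Kif3b had -0.01 ± 0.129 and -0.05 ± 0.132. The testis and cilium kinesins ranged from -0.38 to 0.39 with a median of -0.10. At the lower end was Kif19a, a depolymerizing motor that limits the length of cilia, with 35.7 and 52.2 CPM in Tdrd6+/- and 36.5 and 31.3 in Tdrd6-/-, so that the genotypes overlapped (-0.38 ± 0.174, edgeR adjusted p = 0.33). It was called without Tdrd6+/- 1 (-0.61, edgeR adjusted p = 0.0465). Kif9 had 0.05 ± 0.13 (edgeR adjusted p = 0.923). The row of Kif17 and Sh2d5 stood at the upper end (0.39, edgeR adjusted p = 0.51). Of the remaining genes, Kif26a had 0.43 ± 0.342, Kif1bp 0.08 ± 0.155 and the row of Ahctf1 and Kif28 -0.14 ± 0.129, with 0 of 4 rows called by edgeR and 0 at an unadjusted p under 0.05.

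Genes that work with the kinesins were read from the same fit. None of 10 tested kinesin partners passed (median log2 fold change 0.02, and 0 of 10 at an unadjusted p under 0.05), with the kinesin-1 light chain Klc2 at 0.03 and Kifap3, the accessory subunit of kinesin-2, at -0.12. None of 16 spindle partners passed either (median 0.07, and 0 of 16 at an unadjusted p under 0.05), including the kinase Aurka at 0.20 and the checkpoint gene Bub1b at -0.04. Of 14 genes of cytoplasmic dynein and dynactin, the complex that moves in the opposite direction on microtubules, 1 was called. Over all genes 4.80% were called, and 3.78% were called lower. The heavy chain Dync1h1 had 67554 and 81416 counts in Tdrd6+/- and 67722 and 57173 in Tdrd6-/-, and was lower after scaling (log2 fold change -0.49 ± 0.137, edgeR adjusted p = 0.0545). The light chain Dynlt1b had 0.14, and the list's median was 0.06. None of 18 intraflagellar transport genes was called, although 3 had an unadjusted p under 0.05, and the highest ones, Ift140 and Ift74, had -0.33 and 0.19.

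Splicing was first read from the introns. For each intron the share of all intron counts of its gene was compared between genotypes, with the DEXSeq model fitted in DESeq2 (likelihood ratio test of intron by genotype). A total of 10 or more counts was reached by 713 kinesin introns, and 137 passed DESeq2's independent filtering, which dropped introns with a mean under 85.5. In Tdrd6-/-, 3 of these 137 were used less and none was used more. Over all 28903 introns tested 1.94% were called, 1.22% lower. The 3 introns were Kif15 intron 10, Kif20b intron 17 and Kif27 intron 16, and Kif15 intron 10 had been singled out in the choice of genes with earlier results of these data known. The exon joins across the called introns are shown because they are the sequences left once each intron is removed. All lie in coding sequence, and the 12 capitals mark the last 6 bases of the upstream and the first 6 of the downstream exon (GENCODE M21 transcripts, mm10, strand of the gene).

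Kif15 join at intron 10: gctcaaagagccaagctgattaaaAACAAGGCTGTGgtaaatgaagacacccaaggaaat
Kif20b join at intron 17: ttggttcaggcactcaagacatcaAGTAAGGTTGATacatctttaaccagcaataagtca
Kif27 join at intron 16: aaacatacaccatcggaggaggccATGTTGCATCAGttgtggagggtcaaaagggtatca

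Kif15 intron 10 (chr9:122979863-122984799, 4937 bp, plus strand) lies between exons 10 and 11 of 35. It had 191 and 141 counts in Tdrd6+/- and 67 and 43 in Tdrd6-/-, which was 5.45% and 4.95% of all Kif15 intron counts against 2.49% and 1.67%. Both Tdrd6-/- samples thus held less than the controls, with means of 5.20% ± 0.354 and 2.08% ± 0.58 (SD, n = 2 each). The log2 change of usage was -1.37 ± 0.276 (SE) with an adjusted p of 0.00113 in the DESeq2 likelihood ratio test. By share the intron ranked 6 of 34 in the controls and 15 of 34 in Tdrd6-/-. The other 11 Kif15 introns tested had changes of -0.26 to 0.24, and the 2 longer introns of the gene, introns 1 and 5, had 0.18 ± 0.19 and 0.08 ± 0.225. The sum of the gene's introns was 3504 and 2847 counts in Tdrd6+/- and 2686 and 2576 in Tdrd6-/-.

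The rows that flank this intron did not show a matching difference. Exons 10 and 11 had log2 changes of usage of -0.06 ± 0.159 and -0.09 ± 0.183, and the junction that joins them had 149 and 96 counts in Tdrd6+/- and 146 and 150 in Tdrd6-/- (0.10 ± 0.215, DESeq2 adjusted p = 1). For every 100 junction counts the intron had 128 and 147 counts in Tdrd6+/- and 45.9 and 28.7 in Tdrd6-/-. Measured against the exonic count of the gene instead of its other introns, the change was -1.48 with a DESeq2 adjusted p of 0.000194. With edgeR's usage test the size was -1.35 but the adjusted p was 0.129. The call was lost without Tdrd6+/- 1 (-1.3, DESeq2 adjusted p = 1) and without Tdrd6-/- 2 (-1.10, DESeq2 adjusted p = 0.386), and kept without either of the other samples. These 2 samples also had the highest and the lowest intron counts relative to gene counts. Over 41 kinesin genes counted in rows of their own there were 62.2 and 47.9 intron counts for every 100 gene counts in Tdrd6+/- 1 and 2, and 48.2 and 37.4 in Tdrd6-/- 1 and 2, beside 55.6, 44.1, 44.7 and 32.1 over all such genes. Its part in the result was not tested.

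Kif20b intron 17 (chr19:34942543-34947583, 5041 bp, plus strand) follows an exon of 35 bp. It had the largest share of its gene's intron counts in all samples, with 223 and 209 counts in Tdrd6+/- and 145 and 94 in Tdrd6-/-, or 18% and 19.2% against 13.8% and 9.83%. The Tdrd6-/- samples were again lower without overlap, by -0.78 ± 0.239 on the log2 scale (DESeq2 adjusted p = 0.0756). It was the only one of the 31 Kif20b introns above the filter on the mean. Among those under the filter was intron 13 with 19 and 25 counts in Tdrd6+/- and 46 and 45 in Tdrd6-/-, a difference in the other direction (1.30 ± 0.408) that had no adjusted p but an unadjusted one close to that of intron 17. The junction over intron 17 had 29 and 61 counts in Tdrd6+/- and 86 and 79 in Tdrd6-/- (log2 change of usage 0.38 ± 0.316, DESeq2 adjusted p = 1). The gene count of Kif20b was not lower in Tdrd6-/-, as given above.

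Kif27 encodes a kinesin related to Kif7, which regulates Hedgehog signaling in cilia. Its intron 16 (chr13:58345830-58354564, 8735 bp) is numbered by the chromosome and is the first intron of the 17-exon transcript used to place it, which runs on the minus strand. Its counts were 155 and 145 in Tdrd6+/- and 96 and 69 in Tdrd6-/-, or 9.15% and 9.11% against 5.98% and 4.88% of the gene's introns. The genotypes did not overlap, with a log2 change of -0.81 ± 0.249 (DESeq2 adjusted p = 0.0761). Both this call and that of Kif20b intron 17 were lost in edgeR's usage test (adjusted p = 1 each), without independent filtering (DESeq2 adjusted p = 0.301 and 0.299) and without Tdrd6+/- 1, Tdrd6+/- 2 or Tdrd6-/- 2. The Kif27 call was also lost with the exonic count as reference (-0.70, DESeq2 adjusted p = 0.16), where the Kif20b intron had -1.12 (DESeq2 adjusted p = 0.00228).

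**Figure D4:**
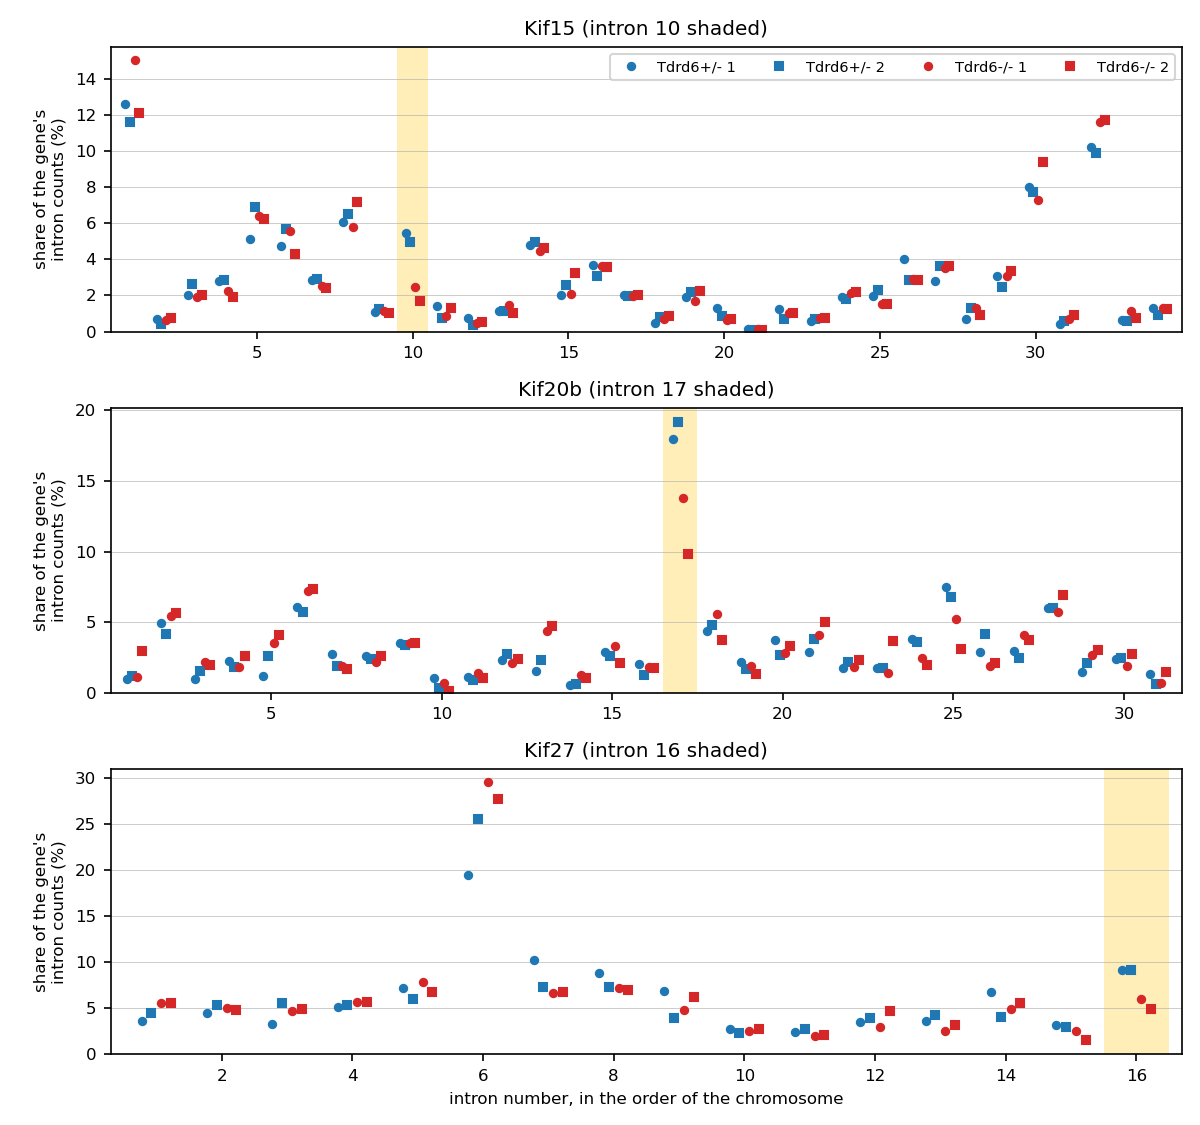
Share of a gene's intron counts in percent (vertical axis) that fell on each intron (horizontal axis, numbered along the chromosome) in the 4 samples, for Kif15, Kif20b and Kif27. In the shaded introns both Tdrd6-/- samples (red) were below both Tdrd6+/- samples (blue).

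The introns of other kinesins gave no further calls. The next lower one was Kifc3 intron 18, which held 22.3% and 21.7% of intron reads of Kifc3 in Tdrd6+/- and 18.8% and 12.8% in Tdrd6-/- (-0.59 ± 0.259, DESeq2 adjusted p = 0.338). It was called only without Tdrd6-/- 1. At the upper end Kif9 intron 12 had 1.5% and 1.4% in Tdrd6+/- and 2.08% and 2.35% in Tdrd6-/- (0.62 ± 0.249, DESeq2 adjusted p = 0.271). Kif27 intron 6, the intron with the highest share in that gene, had 19.4% and 25.5% against 29.5% and 27.7% (0.48 ± 0.201, DESeq2 adjusted p = 0.302). Kif5b intron 10 and Kif16b intron 23 had 0.48 ± 0.251 and 0.45 ± 0.254, also short of the threshold (DESeq2 adjusted p = 0.499 and 0.548).

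The called introns were among the longest of their own genes, but not of all kinesin introns tested. Longer ones that were not called included Kif16b intron 14 (75167 bp, -0.38 ± 0.192) and Kif6 intron 15 (73107 bp, -0.03 ± 0.168). Kif15 intron 10 was the third longest of its gene, Kif20b intron 17 the second longest and Kif27 intron 16 the longest. A length was known for 117 of the tested kinesin introns, and Spearman's rho between length and log2 change was -0.39 over them. Among the 77 introns of 3000 bp or more 52 had a change below 0, compared with 7 of 40 shorter ones. Introns of a gene share libraries and their shares sum to a fixed total, so that the correlation is given as a description. The same relation over the introns of all genes is not given here, so it cannot be read as particular to kinesins. When each sample was left out in turn, rho was -0.26 to -0.42, and 46 to 53 of the 77 longer introns and 11 to 13 of the 40 shorter ones were below 0.

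**Figure D5:**
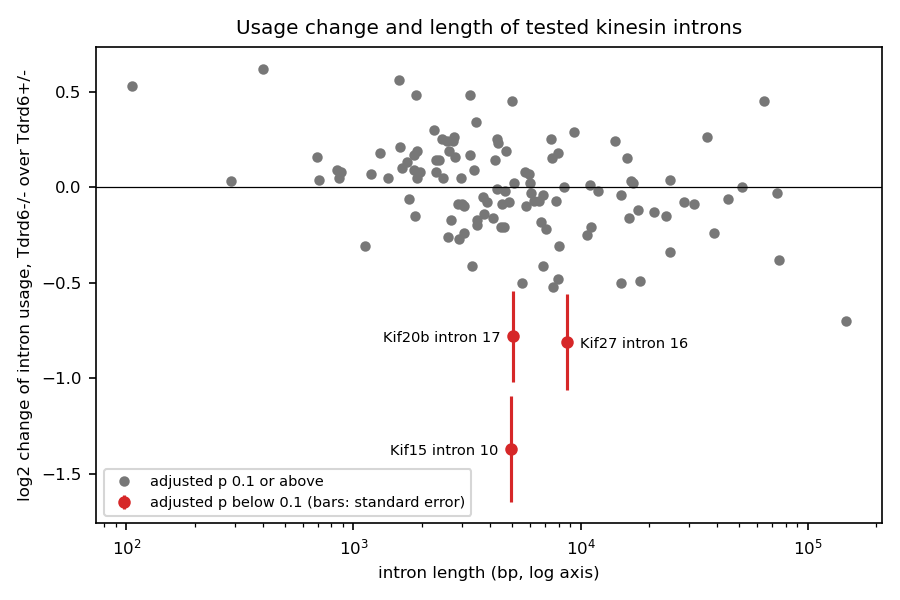
Log2 change of usage (Tdrd6-/- over Tdrd6+/-) of the 117 tested kinesin introns with a known length, plotted against length in bp on a log axis, with the 3 called introns in red and their standard errors as bars. The called introns measured 4937 to 8735 bp, and points below 0 were more frequent at 3000 bp and above.

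Exon segments and junctions were compared in the same way with the rest of the gene's count (the JunctionSeq model, fitted in DESeq2). Of 926 kinesin segments and junctions tested, 0 were called, where 0.221% of 147710 were called over all genes. An unadjusted p under 0.05 was reached by 17 of them, and edgeR's usage test called 0 of 1740, with 29 at an unadjusted p under 0.05. The smallest p belonged to Kif2a exon segment 33. It had 116 and 94 counts in Tdrd6+/- and 96 and 139 in Tdrd6-/-, or 1.23% and 0.776% of the gene's count against 1.41% and 2.33% (log2 change of usage 0.91 ± 0.278, DESeq2 adjusted p = 0.268). Unlike most of the gene, this segment was not lower in Tdrd6-/- in absolute counts. Segments with nearby numbers had changes in the same direction, with 0.41 ± 0.161 for segment 28, 0.46 ± 0.19 for segment 29 and 0.59 ± 0.212 for segment 30, while segments 7, 8 and 9 had -0.26 ± 0.111, -0.29 ± 0.114 and -0.26 ± 0.125. Segments 28, 29 and 30 were called without Tdrd6+/- 2 (DESeq2 adjusted p = 0.0302, 0.0652 and 0.0519), and segment 33 without Tdrd6-/- 1 (DESeq2 adjusted p = 0.0887). The positions of these segments were not determined.

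Further kinesin rows by p were small in size. Kif3a exon segment 30 had 12.1% and 11.5% of the gene's count in Tdrd6+/- and 9.83% and 9.79% in Tdrd6-/- (-0.30 ± 0.135), and segment 17 had 12.8% and 14.3% against 15.4% and 16.5% (0.28 ± 0.13). Kif1b segment 2 and Kif14 segment 22 had -0.36 ± 0.174 and -0.47 ± 0.287. Of the junctions, Kif15 junction 64 had 0.48 ± 0.209 and Kif20b junction 42 had 0.64 ± 0.308. All had DESeq2 adjusted p at or above 0.94. Unannotated junctions were rare in kinesin genes, with 17 rows beside 1075 annotated ones. They held 0.895% and 0.668% of the junction counts in Tdrd6+/- and 0.774% and 0.904% in Tdrd6-/-, so that the genotypes overlapped, and 1.31% to 1.33% over all genes.

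A change shared by all introns of a gene would not show in shares, and the sum of each gene's introns was therefore tested like a gene count with edgeR. None of 41 kinesin genes was called, where 1.42% of 15025 were called over all genes, and 2 of the 41 had an unadjusted p under 0.05. DESeq2's Wald test, whose filter kept 22 kinesin genes, called 2 of them, Kif16b and Kif2a, beside 7.20% over all genes. Kif16b, a motor of endosomes, had intron totals of 5544 and 4368 counts in Tdrd6+/- and 3859 and 2399 in Tdrd6-/-, or 439 and 361 CPM against 285 and 235. Both Tdrd6-/- samples were below the controls (log2 fold change -0.62 ± 0.213, edgeR adjusted p = 0.148, and -0.64 with a DESeq2 adjusted p of 0.0596), while its gene count had a log2 fold change of -0.11 ± 0.135. For Kif2a the introns had 527 and 481 CPM in Tdrd6+/- and 346 and 354 in Tdrd6-/- (-0.53 ± 0.214, edgeR adjusted p = 0.257, and DESeq2 adjusted p = 0.0718), in the same direction as its gene count. Without Tdrd6-/- 1, Kif16b (-0.77, edgeR adjusted p = 0.0894) and Kif20a (0.65, edgeR adjusted p = 0.0812) were called. Kif24 followed at -0.38 and Kif19a at -0.31. In the other direction were Kif20a with 94.3 and 99.0 against 106 and 152 CPM (0.41 ± 0.211, edgeR adjusted p = 0.394), Kif17 at 0.54, Kif1a at 0.44 and Kifc2, with at most 40 intron counts in any sample, at 0.74. The median over the kinesin genes was 0.05, beside 0.068 over all genes.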

How the data were processed

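Per the labels, total RNA of hCD4+ testis cells was depleted of rRNA and made into libraries with a directional kit. The authors aligned the reads with GSNAP to mm10 and deposited counts that were not normalized, 1 table of introns and 1 of genes, exon segments, annotated and unannotated junctions per sample. The counting program is not given in the sources used here. Whether it used strand is not stated. Some overlapping genes share a merged row (940 rows), and 755 of the 759 merged rows with known strands join genes of 1 strand.

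Samples were grouped by the genotype in their titles. The labels do not say whether replicates were separate pools of animals, so p-values measure the spread between these samples. Gene counts and intron sums were scaled by TMM, filtered by filterByExpr and tested by quasi-likelihood in edgeR 4.0.16 (R 4.3.3). DEXSeq and JunctionSeq were not installed, and their models were fitted with DESeq2 1.42.0 (at least 10 counts per feature, dispersion trend over the feature's own mean, independent filtering). Merged genes were left out for exon segments and junctions, and 154 of these rows exceeded the count of their gene and had a rest of 0. Benjamini-Hochberg adjustment ran over all features tested, at a false discovery rate of 0.1. With 2 samples against 2, an exact permutation test of a single value cannot go below p = 0.33. Positions, lengths and sequences came from GENCODE M21 (mm10). Introns were placed by order where a transcript has as many introns as the files. Scripts were tested on simulated data.

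Kinesin genes, role groups and partner lists were chosen with earlier results of these data known. The text names members, introns and exon rows that passed a test, Kif15, the 3 highest members per role, the 4 smallest p in each direction per test (introns and exon rows at most 1 per gene), and list genes that passed or were the highest 2. Tdrd6, the markers, and the neighbours, paralogs and other introns and segments given beside a result were added after values were seen. Alternatives were other normalizations, tools, filters, thresholds and intron references, a replicate block, and leaving out each sample.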

Additional observations from a re-analysis of the deposited data

How the results depend on the processing

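The 2 kinesin gene calls were found in every alternative for the gene count except that without the filter on low counts, which gave 1 (Kif2a), and numbered 2 to 3 without single samples. The 3 intron calls became 0 with edgeR's usage test, 5 with the exonic count as reference, 1 without independent filtering, 1 at a false discovery rate of 0.05, and 0 to 4 without single samples. Over all genes these alternatives gave 2, 1284, 220, 327 and 4 to 1175 introns, against 561. For Kif15 intron 10 the log2 change was -1.35 with edgeR (adjusted p = 0.129), and -1.10 to -1.69 without single samples. Exon segments and junctions gave 0 to 3 kinesin calls without single samples, and otherwise 0. Intron totals gave 2 with DESeq2's Wald test, 0 to 2 without single samples, and otherwise 0. Scaling introns by the library sizes of the gene counts moved the median log2 fold change of all intron totals from 0.068 to -0.227 and gave 3 calls, against 214. Higher in Tdrd6-/- were 26 of these 214, and 3 of 396 with DESeq2's Wald test. Kif16b intron 23 changed sign with the exonic reference (-0.07), and the Kif19a intron total without Tdrd6+/- 2 (0.04, and -0.61 to 0.04 without single samples), neither of them called. The causes of these differences were not tested. Over all genes, edgeR called 75 rows without the filter on low counts and 257 to 1064 without single samples, against 794. Exon segments and junctions called numbered 72 with edgeR's usage test and 51 to 763 without single samples, against 327, and intron totals 112 at a false discovery rate of 0.05 and 4 to 951 without single samples. The intron counts of Tdrd6-/- 2 were the fewest, and introns with a mean under 85.5 were not tested.

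The labels do not pair the samples. Same-numbered samples deviated with a correlation of -0.107 over 12347 genes. With the replicate number as a block, 2 kinesin genes, 3 introns, 0 exon segments or junctions and 0 intron totals were called, and Kif15 intron 10 had -1.38. The crossed pairing, added after seeing the data, called 2 kinesin genes and 0 intron totals. Over all genes the block gave 1046 genes, 881 introns, 306 exon segments and junctions and 189 intron totals, and the crossed pairing 1175 genes and 82 intron totals.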
